A study of Mus musculus with 4 samples.

Results

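The 35 genes described here encode antiviral effectors that interferon induces, among them the IFIT, OAS, MX and PARP families, and all 35 were found by gene symbol among the 24346 symbols listed for each library. They were selected on gene symbol and known function, without receptors, nucleic acid sensors or the GBP and IRG GTPases, at a time when interferon-stimulated genes were already known to be higher in the later passage of these same libraries. Their differences between passages are therefore given as a description, and no support is drawn from how many of them differed. RNA was sequenced from hair follicle stem cells (HFSCs), which were sorted as CD49f+ CD34+ cells from the dorsal skin of 4-week-old C3H/HeN mice, a wild-type inbred strain, and passaged weekly in the serum-free medium M-CnT. HFSCs at passage 10 (10p-HFSCs) and at passage 48 (48p-HFSCs) gave 2 libraries each, and the labels name no treatment with interferon or virus. Neither the labels nor the paper states whether replicates, or the passages themselves, came from separate animals or cultures, so the spread between replicates may be technical. Of listed markers of this cell type, the basal keratin genes Krt5 and Krt14 had an FPKM of 1217 or more in all 4 libraries. Cd34 reached at most 0.234 and Lhx2 at most 0.0241, so the RNA values of these defining markers were near 0 at both passages. The paper reports otherwise by other methods. It found CD34 protein on most cells at both passages, and by qRT-PCR maintained CD34 and increased Lhx2 and Sox9 in 48p-HFSCs. The deposited values are FPKM, by definition the reads of a gene divided by its transcript length and by the mapped reads of the library. The paper does not state whether the libraries were also scaled to each other.

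Interferons are secreted proteins that cells release on sensing viral nucleic acid. Type I interferons bind a receptor made of Ifnar1 and Ifnar2, type III interferons one made of Ifnlr1 and Il10rb, and both lead through the kinases Jak1 and Tyk2 to a complex that holds Stat2 and Irf9. This complex binds the interferon-stimulated response element (ISRE) in the promoters of its targets, whose products bind or degrade viral RNA, block translation, modify proteins or hold virus particles at the cell surface. Keratinocytes of the skin respond to both types.

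The ISRE is the sequence through which these genes are known to be switched on together, so it was searched in RefSeq promoter windows of 300 bases (250 before and 50 after the annotated start, build GRCm38.p6). A window was held for 26 of the 35 genes. The core searched was GAAANNGAAA on either strand, with overlapping matches counted, and 10 of the 26 genes had a match, namely Bst2, Ddx60, Eif2ak2, Ifit1, Ifit3, Isg15, Oas1a, Oas1g, Oas3 and Rsad2. Among all 27025 genes with a window, 3.99% had one. The shorter AANNGAAA, which every match of the longer core also holds, was found in 20 of the 26 genes and in 26.7% of all genes. The 160 bases before the start are shown for 7 genes with the core, chosen to show the arrangements found, in genes with large differences between passages and in Bst2, which had lower values in 48p-HFSCs. Each is written 5′ to 3′ on the strand of the gene, ends at the base before the start, and has the matches of the core in capitals (a match on the opposite strand reads as its reverse complement).
Isg15, chr4:156200819-156200978 (minus strand): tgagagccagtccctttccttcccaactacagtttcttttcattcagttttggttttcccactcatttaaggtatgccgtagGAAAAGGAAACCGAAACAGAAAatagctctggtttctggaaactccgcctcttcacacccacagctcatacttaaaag
Ifit1, chr19:34640729-34640888 (plus strand): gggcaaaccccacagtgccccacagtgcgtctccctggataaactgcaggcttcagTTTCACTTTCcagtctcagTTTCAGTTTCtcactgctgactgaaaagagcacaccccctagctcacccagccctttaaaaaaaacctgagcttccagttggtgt
Ifit3, chr19:34583369-34583528 (plus strand): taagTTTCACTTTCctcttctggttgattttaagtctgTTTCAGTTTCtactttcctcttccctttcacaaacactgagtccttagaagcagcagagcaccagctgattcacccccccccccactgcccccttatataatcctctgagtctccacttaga
Oas1a, chr5:120907526-120907685 (minus strand): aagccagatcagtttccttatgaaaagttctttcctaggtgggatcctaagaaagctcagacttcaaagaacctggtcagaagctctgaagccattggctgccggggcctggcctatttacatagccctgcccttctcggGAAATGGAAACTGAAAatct
Oas1g, chr5:120887614-120887773 (minus strand): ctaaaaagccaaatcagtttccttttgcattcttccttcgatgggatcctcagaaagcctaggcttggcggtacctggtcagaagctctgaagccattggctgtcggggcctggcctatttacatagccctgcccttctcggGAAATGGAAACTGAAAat
Rsad2, chr12:26456453-26456612 (minus strand): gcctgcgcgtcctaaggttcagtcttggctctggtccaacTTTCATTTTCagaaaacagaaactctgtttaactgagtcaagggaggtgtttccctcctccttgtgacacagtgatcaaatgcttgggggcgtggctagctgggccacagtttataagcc
Bst2, chr8:71537473-71537632 (minus strand): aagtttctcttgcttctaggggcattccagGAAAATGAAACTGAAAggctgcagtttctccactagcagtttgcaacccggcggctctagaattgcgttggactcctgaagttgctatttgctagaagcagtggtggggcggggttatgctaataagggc
In Isg15, 3 overlapping matches formed one run that began 78 bases before the start. In Ifit1 and Ifit3 there were 2 separate matches each, all on the opposite strand. The neighbours Oas1a and Oas1g carried 2 overlapping matches close to the start, and Rsad2 a single one. Bst2 also held 2 overlapping matches. A match is a description of letters, and no binding was measured. The median log2 difference between passages was 2.12 over the 10 genes with a match and 1.44 over the 16 genes without one, which include Irf7 and Xaf1, and this difference was not tested.

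Most of the effectors had higher values in 48p-HFSCs. An FPKM of at least 1 was reached by 17 of the 35 genes in each 10p-HFSC library, by 33 in replicate 1 of 48p-HFSCs and by 29 in replicate 2. In 28 genes the later passage was the higher in every pairing of libraries, in 3 genes (Bst2, Parp12 and Epsti1) it was the lower in every pairing, and in 4 (Oas3, Parp9, Dtx3l and Adar) the groups overlapped. Over all 35 genes, the median difference between passages on the log2(FPKM + 1) scale was 1.89. Groups were compared with limma over the 11018 genes that reached an FPKM of 1 in 2 or more libraries. A gene was called where the Benjamini-Hochberg adjusted p-value was below 0.05 and the log2 difference was 1 or more in either direction. Of the effectors, 29 passed the filter on low values and 17 of these were called higher, 0 were called lower and 12 were not called (20 were higher and 2 lower at an unadjusted p-value under 0.05). Of all genes tested, 10.8% were called higher and 9.15% lower, and the median log2 difference was -0.03. The later passage was higher in every pairing in 31.7% of them and lower in every pairing in 34.3%. Of the 29 effectors tested, this was so in 23 and in 2. Since the genes were chosen with this contrast known, nothing is read from the excess. It is further limited by the filter, since 12 of the 29 passed only through the 48p-HFSC libraries and so had to differ. Among the 16 genes that reached an FPKM of 1 in both 10p-HFSC libraries, 6 were called higher and 10 were not called, and their median log2 difference was 0.94. With a 48p-HFSC library left out, the 12 effectors that passed only through the 48p-HFSC libraries could not pass the filter. They held 11 of the 17 calls, so the filter alone takes these calls away. The count of calls changed when single libraries were left out. It went from 17 to 7 without replicate 1 of 48p-HFSCs and to 13 without replicate 2 of 48p-HFSCs, when 17 effectors passed the filter in each case. It was 17 of 29 tested without either 10p-HFSC library. With the genes tested held the same, the count was 17 and 20 without replicates 1 and 2 of 48p-HFSCs, while leaving out either 10p-HFSC library gave 0 calls by limma (14 and 15 at an unadjusted p-value under 0.05). After rescaling to the same summed FPKM (TPM) the median of all genes tested moved to -0.56. Of the 30 effectors then tested, 11 were called higher and Bst2 was called lower, against 5.46% and 7.98% of all genes. Ifit1 gained a call on this scale, and calls were lost by Ifi27, Ifit2, Isg15, Isg20, Oas1g, Oasl2 and Usp18, whose log2 differences were between 0.63 (Isg20) and 2.70 (Oasl2). Without the filter on low values 9 of the 35 effectors and 4.89% of all genes were called higher. The calls lost were those of Ifit2, Ifit3, Isg15, Isg20, Mx1, Oas2, Oasl2 and Rtp4, with the same log2 differences and larger adjusted p-values. With a constant variance prior in limma 15 of the 29 effectors were called higher, without Ifit3 and Oas2, against 10.2% of all genes tested. In bulk RNA, more expressing cells and more RNA per cell cannot be told apart.

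**Figure D1:**
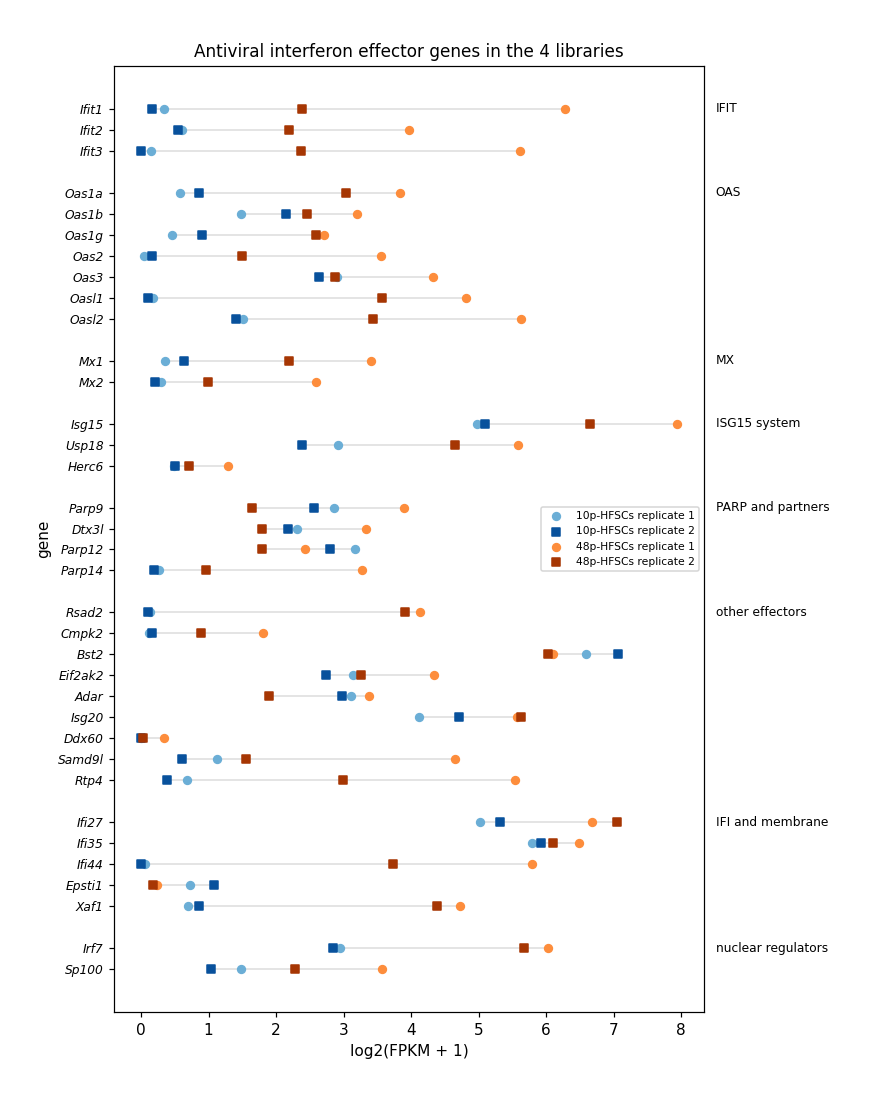
Values of the 35 antiviral effector genes in the 4 libraries, as log2(FPKM + 1) on the horizontal axis, with the genes grouped by family and a grey line from the lowest to the highest library. Blue symbols are 10p-HFSCs and orange and brown symbols 48p-HFSCs, circles replicate 1 and squares replicate 2, and the later passage lies to the right in 28 genes, with replicate 1 furthest right in most of them.

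The IFIT genes, which encode RNA-binding proteins made of tetratricopeptide repeats, were low at the earlier passage and unequal between the libraries of the later one. Ifit1, whose product binds viral RNA with an unmethylated cap, had an FPKM of 0.261 and 0.112 in replicates 1 and 2 of the earlier passage and of 76.3 and 4.21 in those of the later one. From here on the values are given in this order. The groups did not overlap, but the 48p-HFSC libraries differed from each other 18.1-fold, and the log2 difference of 4.08 (standard error 1.17, n = 2 per group) was not called. Ifit3 was at 0.109 and listed at 0 in 10p-HFSCs against 47.9 and 4.14 in 48p-HFSCs, with a log2 difference of 3.91 (standard error 0.98) that was called higher. Ifit2 was at 0.522 and 0.456 against 14.6 and 3.58, and was called higher with a log2 difference of 2.50 (standard error 0.57). All 3 thus lay under an FPKM of 1 in 10p-HFSCs, and replicate 1 exceeded replicate 2 in 48p-HFSCs by 4.08-fold or more. The genes lie within 99316 bases of chromosome 19 (mm10, 34550694 to 34650009). Of their unselected neighbours there, Ifit3b was at 0.081 and 0 against 15.7 and 0.694, and Ifit1bl1 was listed at 0 in each 10p-HFSC library against 5.21 and 0.416, so the same order of libraries was seen. Ifit3 shared 31.6% of the windows of 100 bases (close to the read length) in its transcript with Ifit3b, so the values of these copies are uncertain. Over 5% of the windows were also shared in Herc6, Rtp4, Oas1a and Oas1g, and 25 of the 35 effectors shared none.

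The OAS genes include those for enzymes that make short oligoadenylates on double-stranded RNA and thereby activate RNase L. All 7 passed the filter, 5 were called higher, and 2 (Oas1b and Oas3) were not called. Oasl1, a family member known to restrain translation of Irf7, was at an FPKM of 0.127 and 0.0711 in 10p-HFSCs and of 27.1 and 10.8 in 48p-HFSCs, with a log2 difference of 4.05 (standard error 0.44). Oasl2, which carries ubiquitin-like domains, was at 1.85 and 1.65 against 48.4 and 9.85, a log2 difference of 3.07 (standard error 0.69) and a ratio of the group means of 16.6. Both lie within 40980 bases of chromosome 5 (114896936 to 114937915), and in both the 48p-HFSC libraries lay well above 10p-HFSCs with replicate 1 the higher. Oas2 was at 0.0267 and 0.112 against 10.8 and 1.83, a log2 difference of 2.43 (standard error 0.64). Oas3 was at 6.47 and 5.20 against 19.1 and 6.28, so that replicate 2 of 48p-HFSCs fell between the 10p-HFSC libraries.
The Oas1 genes lie with Oas2 and Oas3 in a cluster of 10 genes on chromosome 5 (120730333 to 120921652). Oas1a was at 0.493 and 0.810 in 10p-HFSCs against 13.3 and 7.20 in 48p-HFSCs, with a log2 difference of 2.72 (standard error 0.35). Oas1g was at 0.374 and 0.870 against 5.54 and 5.04, with close 48p-HFSC libraries and a log2 difference of 1.97 (standard error 0.28). Oas1a and Oas1g share 40.9% and 38.2% of their windows of 100 bases with each other, so that reads could have been split between them. Oas1b, the flavivirus resistance gene, which the annotation lists as a polymorphic pseudogene, was at 1.80 and 3.43 against 8.17 and 4.49. Its groups did not overlap, but its log2 difference of 1.01 (standard error 0.39) was not called. Among the copies that were not selected, Oas1e was at 0.323 and 0.226 against 8.77 and 8.37 and was called higher. Oas1c had lower values in 48p-HFSCs, at 5.26 and 8.03 against 4.56 and 2.76, and was not called. Oas1d, Oas1f and Oas1h stayed under an FPKM of 1 in all libraries, and each had both 48p-HFSC libraries below both 10p-HFSC libraries.

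The MX genes encode dynamin-like GTPases that trap viral components. Mx1 was at an FPKM of 0.274 and 0.547 in 10p-HFSCs and of 9.62 and 3.58 in 48p-HFSCs, and was called higher with a log2 difference of 2.31 (standard error 0.44). Mx2, listed by the annotation as a polymorphic pseudogene, was at 0.220 and 0.154 against 5.0 and 0.990, and missed the filter by that last value. The genes neighbour each other on chromosome 16 (97447035 to 97560900), and in both replicate 1 of 48p-HFSCs was highest.

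The ISG15 system attaches a ubiquitin-like protein to other proteins and removes it again. Isg15, the modifier itself, had the highest FPKM of all effectors in replicate 1 of 48p-HFSCs. It was at 30.4 and 33.3 in 10p-HFSCs against 245 and 99.6 in 48p-HFSCs, with a log2 difference of 2.26 (standard error 0.45) and a ratio of the means of 5.42, and was called higher. Unlike most effectors it was well expressed at the earlier passage, with close replicates. Usp18, which removes Isg15 and also dampens signaling at the Ifnar2 chain, was at 6.51 and 4.22 against 47.1 and 24.1 and was called higher with a log2 difference of 2.47 (standard error 0.40). Herc6, the ligase for Isg15 in the mouse, stayed low at 0.405 and 0.417 against 1.43 and 0.639, and did not pass the filter. The enzymes that load Isg15, which were not selected, also had higher values in 48p-HFSCs. Ube2l6, the conjugating enzyme, was at 6.11 and 8.87 against 25.9 and 26 and was called higher. Uba7, the activating enzyme, was at 1.57 and 2.24 against 7.43 and 3.78 and was not called.

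The genes for PARP enzymes, which add ADP-ribose, and for Dtx3l, a ubiquitin ligase that works with Parp9, included no call among the 3 that passed the filter. Parp9 was at an FPKM of 6.24 and 4.92 in 10p-HFSCs and of 13.9 and 2.12 in 48p-HFSCs. Dtx3l, which is divergently transcribed from the same start region and shares 458 exon bases with Parp9 on the opposite strand, was at 3.97 and 3.51 against 9.09 and 2.46. In both genes replicate 1 of 48p-HFSCs was the highest of the 4 libraries and replicate 2 the lowest, so the direction of the difference depended on the library. Without replicate 1 of 48p-HFSCs the log2 differences were -1.07 for Parp9, which was then called lower, and -0.45 for Dtx3l. Without replicate 2 they were 1.19 and 1.09, and both genes were called higher (neither was with the genes tested held the same). Both also turned negative after rescaling to TPM, at -0.37 and -0.10. Whether strand was used in counting is not known, so reads from the shared exons cannot be told apart, and the same holds for Adar and Ifi35, which share 16.8% of their exon bases each with a gene on the opposite strand. Parp12, a zinc finger member, was at 8.0 and 5.96 against 4.37 and 2.46, lower in both 48p-HFSC libraries with a log2 difference of -0.88 (standard error 0.34) that was called only without replicate 1 of 48p-HFSCs, at -1.19. Parp14 was at 0.201 and 0.136 against 8.64 and 0.951 and did not pass the filter. Parp14, Dtx3l and Parp9 lie together on chromosome 16 (35832874 to 35972605).

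Of the 9 other effectors, 7 passed the filter and 3 were called higher. Rsad2, which encodes viperin, an enzyme that makes a chain-terminating nucleotide, was at an FPKM of 0.0956 and 0.0762 in 10p-HFSCs and of 16.5 and 14.0 in 48p-HFSCs. Its 48p-HFSC libraries were close to each other, and the log2 difference of 3.90 (standard error 0.26) was called higher. Cmpk2, a nucleotide kinase gene that lies 12751 bases away in the opposite orientation on chromosome 12, was at 0.0819 and 0.114 against 2.49 and 0.841, below the filter. Both neighbours were near 0 in 10p-HFSCs, where their levels cannot be compared. In 48p-HFSCs Rsad2 lay far above Cmpk2 on the FPKM scale, which is per length. Rtp4, which encodes a receptor transport protein, was at 0.606 and 0.299 against 45.3 and 6.95 and was called higher with a log2 difference of 3.73 (standard error 0.79). Isg20, an exonuclease gene, was at 16.3 and 25.1 against 46.6 and 48.5, a log2 difference of 1.19 (standard error 0.29) that was called higher, and here replicate 2 was not below replicate 1.
Samd9l, which represses translation, was at 1.18 and 0.520 against 24.0 and 1.94. The 48p-HFSC libraries differed 12.4-fold and the log2 difference of 2.23 (standard error 0.95) was not called. Eif2ak2, which encodes the kinase PKR, was at 7.78 and 5.68 against 19.2 and 8.58 and was not called. Adar, the RNA-editing deaminase, was at 7.60 and 6.83 against 9.38 and 2.73, with the 10p-HFSC libraries between those of 48p-HFSCs, and its log2 difference was -1.14, called lower, without replicate 1 of 48p-HFSCs and 0.34 without replicate 2. Ddx60, a helicase gene, was listed at 0 in each 10p-HFSC library, and reached only 0.265 and 0.0181 at passage 48. Bst2, which encodes tetherin, the protein that holds budding virus at the cell surface, was the most abundant effector in 10p-HFSCs and had lower values in 48p-HFSCs, at 95.2 and 133 against 68.0 and 64.4. Its log2 difference of -0.76 (standard error 0.29) was not called.

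Among the IFI genes and Xaf1 and Epsti1, 4 of 5 passed the filter and 3 were called higher. Ifi44 was at an FPKM of 0.0361 and listed at 0 in 10p-HFSCs against 54.4 and 12.2 in 48p-HFSCs, the largest log2 difference among the 29 effectors tested at 4.73 (standard error 0.66). Xaf1, a gene for a partner of the caspase inhibitor XIAP, was at 0.619 and 0.817 against 25.4 and 19.9, a log2 difference of 3.78 (standard error 0.28). Ifi27, which encodes a small membrane protein, was at 31.5 and 39.0 against 101 and 132, a log2 difference of 1.69 (standard error 0.28), with replicate 2 the higher. Ifi35 was high in all libraries at 54.7 and 59.9 against 89.2 and 67.4, and was not called, with a log2 difference of 0.43 that was -0.14 after rescaling to TPM. Epsti1 was the exception in direction and did not pass the filter, with 0.645 and 1.11 against 0.177 and 0.126. The unselected neighbour Ifi27l2a, on chromosome 12 with Ifi27, was at 14.7 and 22.0 against 474 and 892 and was called higher with a log2 difference of 5.10 (standard error 0.41).

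Both nuclear regulators had higher values in 48p-HFSCs. Irf7, the transcription factor that amplifies the interferon response, was at an FPKM of 6.68 and 6.14 in 10p-HFSCs and of 64.1 and 50.1 in 48p-HFSCs, a ratio of the means of 8.90 and a log2 difference of 2.96 (standard error 0.26) that was called higher. Sp100, a nuclear body protein gene, was at 1.78 and 1.05 against 10.9 and 3.85, and its log2 difference of 1.67 (standard error 0.47) was not called.

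The 48p-HFSC libraries were not alike in these genes. The summed FPKM of the 35 effectors was 293 and 345 for 10p-HFSCs, while the 48p-HFSC replicates 1 and 2 had sums of 1192 and 628. As a share of the summed FPKM of each library this was 0.0504% and 0.0480%, then 0.179% and 0.0444%. The share in replicate 2 was thus below that in either 10p-HFSC library, while the summed FPKM was above it, because the FPKM of all genes summed to 1414950 in that library and to between 581516 and 719012 in the others. Replicate 1 was above replicate 2 in 33 of the 35 genes, with Isg20 and Ifi27 as the exceptions, while 48.7% of all genes tested were higher in replicate 1. After rescaling to TPM, which lowers replicate 2 as a whole, these were 35 of 35 and 90.4% of all genes, and the median of the effectors exceeded that of all genes by 1.23 on the log2 scale, against 1.22 before. In 17 of the 29 effectors tested the excess was at least 1 on the log2(FPKM + 1) scale, against 8.3% of all genes tested. The median excess over the 35 genes was 1.21, and that of all genes tested was -0.01. At passage 10 replicate 1 minus replicate 2 had a median of 0.06 over the 35 genes, with 20 of them above 0. Opposite signs cancel in this median, and single genes reached -0.66 (Oas1b) and 0.53 (Usp18). In 0 of the 29 effectors tested was the difference 1 or more in either direction. For the 17 genes under an FPKM of 1 in both 10p-HFSC libraries, this scale keeps the difference under 1. Single libraries were compared here, so no test was made. Measured against the mean of 10p-HFSCs, replicate 1 had a median log2 difference of 2.34 over the 35 genes with 32 of them higher, and replicate 2 one of 1.22 with 29 higher.

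**Figure D2:**
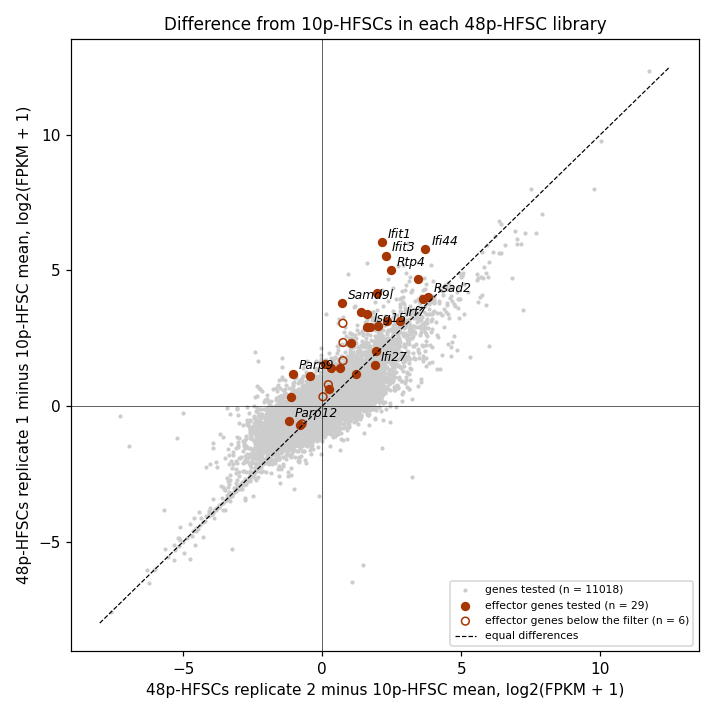
Difference of each 48p-HFSC library from the mean of the 10p-HFSC libraries on the log2(FPKM + 1) scale, with replicate 2 on the horizontal and replicate 1 on the vertical axis. Grey points are the 11018 genes tested and brown points the antiviral effectors (filled, 29 tested, and open, 6 below the filter), which lie above the dashed line of equal differences in 33 of 35 genes.

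The effectors could be set apart by how far the 48p-HFSC libraries differed, a description made after the values were seen. In Ifi27, Isg20, Bst2, Oas1g, Rsad2, Irf7 and Xaf1, of which Bst2 alone was not called higher, the ratio of replicate 1 to replicate 2 lay between 0.767 and 1.28. In Mx2, Oas2, Rtp4, Parp9, Parp14, Ifit3, Samd9l, Ddx60 and Ifit1, of which Oas2, Rtp4 and Ifit3 were called higher, it lay between 5.04 and 18.1. The ratio of Ddx60 rests on values near 0, and the remaining effectors lay between these ranges. The spread between these libraries enters the standard error behind a call, so nothing is read from how many genes were called in each range. Across genes this difference varied with transcript length, and the libraries themselves differed in depth. For all genes tested with a known length, the median of replicate 1 minus replicate 2 of 48p-HFSCs was -0.36 for the shortest, -0.01 for the middle and 0.24 for the longest transcripts (3539, 3537 and 3536 genes). For the effectors tested in these 3 classes it was 0.77, 1.53 and 1.48 (12, 12 and 5 genes), above the median of all genes in each class. Replicate 1 minus replicate 2 of 10p-HFSCs also rose with length, with medians of -0.19, -0.0006 and 0.18 for all genes. For the effectors tested these medians were -0.20, 0.08 and 0.27. The relative depth, read from the most common ratio of low FPKM values, was 82.9% and 46.7% for the 48p-HFSC replicates 1 and 2, with the first 10p-HFSC library set to 100%. This ratio also holds any scaling between libraries, so it may not equal the ratio of mapped reads. The part of length, depth and the summed FPKM in the difference was not tested further. Other genes differed between these libraries as well, such as the basal keratin gene Krt15, with an FPKM of 425 and 18.8.

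**Figure D3:**
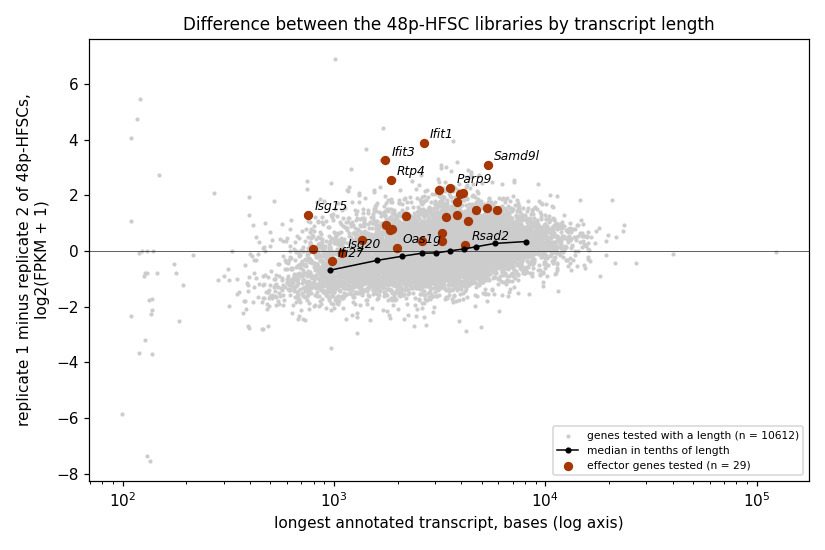
Replicate 1 minus replicate 2 of 48p-HFSCs on the log2(FPKM + 1) scale, against the length in bases of the longest annotated transcript on a log axis. Grey points are the 10612 genes tested with a length, the black line joins their medians in 10 classes of length, and brown points are the 29 antiviral effectors tested, 27 of which lie above 0.

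Upstream of the effectors, the interferon genes themselves gave almost no signal. Of 21 interferon ligand genes, 19, among them Ifnb1, Ifnk and Ifng, were listed at 0 in all 4 libraries, and the others (Ifne and Ifnl3) had an FPKM of at most 0.275. All 6 receptor genes passed the filter, 2 of them (Ifnar2 and Il10rb) only through the 48p-HFSC libraries, so that these had to differ. Of the 6, 3 were called higher and 1 lower, beside 10.8% and 9.15% of all genes tested. So short a list was not tested as a set. Ifnar1 was at 5.77 and 5.22 in 10p-HFSCs against 5.66 and 5.0 in 48p-HFSCs, with overlapping groups. Its partner Ifnar2 was listed at 0 in each 10p-HFSC library, with values of 17.5 and 27.7 at passage 48. Il10rb was likewise listed at 0 in 10p-HFSCs against 10.5 and 7.88 in 48p-HFSCs. Ifnlr1, the chain that pairs with Il10rb, showed the opposite order at 3.27 and 3.46 against 0.0465 and 0.0550. A listed 0 may be a failed estimate of the software, so no fold is given for it. This holds for the ligands too, whose shared windows were not checked, and absence of their RNA is not read from these values. Ifngr2 was called higher, at 5.97 and 4.57 against 16.6 and 15.1, and Ifngr1, at 9.80 and 11 against 6.69 and 7.95, was not called.
Of 8 signal mediators, 3 were called higher and 0 lower, beside 10.8% and 9.15% of all genes tested, and this list was not tested as a set either. Irf9, the DNA-binding part of the complex that acts on the ISRE, was at 2.03 and 2.49 in 10p-HFSCs against 31.8 and 9.00 in 48p-HFSCs. Stat2 was at 4.48 and 4.71 against 18.3 and 11.8, and Irf1 at 32.9 and 29.0 against 80.7 and 80.2, and these were the other two called. In Irf9 and Stat2 replicate 1 of 48p-HFSCs was above replicate 2, as in the effectors, while in Irf1 the libraries were alike. Tyk2 (6.48 and 6.69 against 10.9 and 8.37), Jak2 (20.1 and 20.3 against 30.4 and 29.3) and Jak1, whose groups overlapped between 19.9 and 29.3, were not called. The 5 feedback genes were not called in either direction. Socs1, which blocks the kinases, was at 9.53 and 10.1 against 8.59 and 4.53, and Socs3 at 9.75 and 10.9 against 12.7 and 4.19.

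**Figure D4:**
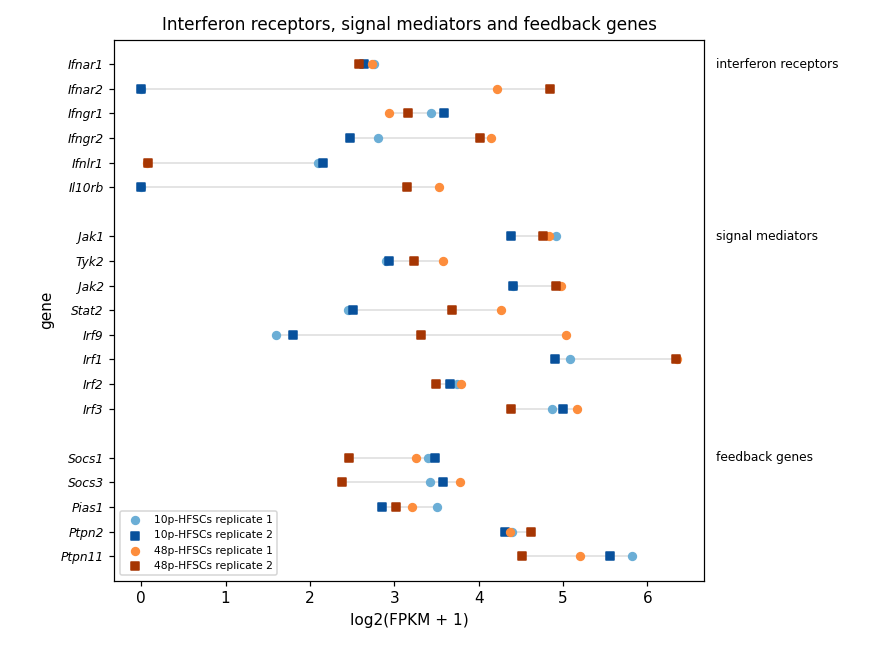
Values of interferon receptor genes, signal mediators and feedback genes in the 4 libraries as log2(FPKM + 1), with the same symbols for passages and replicates as in the plot of the effectors. Ifnar2 and Il10rb lie at 0 in both 10p-HFSC libraries and Ifnlr1 near 0 in both 48p-HFSC libraries, where symbols coincide.

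Of 40 other antiviral effectors listed for comparison, 39 were found by symbol and 31 passed the filter. Of these, 11 were called higher and 1 lower, with a median log2 difference of 0.67. Of all genes tested, 10.8% were called higher and 9.15% lower. The filter limits this count as well, since 7 of the 31 passed only through the 48p-HFSC libraries and so had to differ. Ifi27l2a, Trim30a, Gbp2 and Apobec3 were called with log2 differences of 5.10, 3.44, 3.36 and 3.11. Trim30a was at 0.137 and 0.153 in 10p-HFSCs against 22.3 and 5.63, and Gbp2, a GTPase gene, was at 0.782 and 0.727 against 25.9 and 11.2. Apobec3, a cytidine deaminase gene, was listed at 0 and at 0.0949 in 10p-HFSCs against 14.3 and 4.32 in 48p-HFSCs. The most abundant of all was Ifitm3, whose product blocks entry of enveloped virus, at an FPKM of 2182 and 2468 against 3306 and 6031, a log2 difference of 0.94 (standard error 0.94) that was not called. Zc3hav1 (16.8 and 10.6 against 18.6 and 13.7) and Samhd1 (10.8 and 8.82 against 14.5 and 11.7) were not called either. Ifitm1 was called lower, at 3.40 and 2.05 against 0.249 and 0.221.

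Markers of cell types were read in the same libraries. Of 7 genes listed as markers of hair follicle stem cells, 5 passed the filter, all but Cd34 and Lhx2. These 5 include Krt5, Krt14 and Itga6, which basal keratinocytes in general express. Itga6, which encodes CD49f, was called higher and Sox9 lower in 48p-HFSCs. Of 10 leukocyte markers 2 passed the filter, Cd68 and Csf1r. The summed FPKM of the 10 was 8.64 and 8.02 in 10p-HFSCs against 56.7 and 80.4 in 48p-HFSCs, of which Cd68, a lysosomal gene, made up 53.2 and 78.7. The defining Ptprc was at most 0.0711, and Cd3e, Tyrobp and Itgax were listed at 0 in all libraries. The 5 fibroblast markers, of which Col1a2 alone passed the filter, summed to 68.8 and 60.1 in 10p-HFSCs, nearly all of it Col1a2 (67.6 and 59.3), and to 0.0525 and 0.0466 in 48p-HFSCs. Of 3 endothelial markers, Pecam1 alone passed the filter and the sums were 2.38 and 2.26 against 1.03 and 0.172. The 4 melanocyte markers, of which Tyr alone passed it, summed to 0.486 and 0.640 against 2.15 and 10.8, with Dct listed at 0 in all libraries. The part of other cell types in the higher effector values was not tested beyond these levels.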

How the data were processed

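Polyadenylated RNA of 2 libraries of 10p-HFSCs and 2 of 48p-HFSCs was sequenced as single-end reads from a stranded kit. The authors mapped the reads to mm10 and deposited FPKM values, 1 per gene symbol and library. The submitters' processing notes name TopHat2 2.1.1, Bowtie2 2.2.8, SAMtools 0.1.18 and Cuffdiff 2.2.1, while the paper names Cufflinks and other versions of Bowtie2 and SAMtools. The gene annotation, the strand setting and the handling of reads with several matches are not given in the sources used here, so antisense and near-identical genes are uncertain.

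Genes that reached an FPKM of 1 in 2 or more libraries were compared on log2(FPKM + 1) with limma 3.58.1 in R 4.3.3 (variance trend, Benjamini-Hochberg adjustment over 11018 genes). Differences on this scale understate the change of low genes. FPKM values carry no read totals, so no counting interval is given. Across the genes tested, Pearson's r was 0.981 between 10p-HFSC and 0.950 between 48p-HFSC libraries.

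The 35 genes, the lists and the tests were chosen with earlier results of these data known. Named were all 35 genes, receptors, mediators and effectors fixed by name, and list genes called with a log2 difference of at least 3. Paralogs and neighbours named beside a family, the marker Krt15 of the replicate comparison, Ube2l6, Uba7 and Ifitm1 were chosen after their values were seen. Positions, transcript lengths and windows of 100 bases came from GENCODE M21 (GRCm38, which is mm10), and promoters from RefSeq. Alternatives were a pseudocount of 0.1, no filter, TPM and median-of-ratios scaling, a constant variance prior, the replicate number as a block, and leaving out each library. Leaving out each library with the tested genes held the same was added after seeing the data. One signal mediator is not reported here.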

Additional observations from a re-analysis of the deposited data

How the results depend on the processing

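Replicate 1 of 48p-HFSCs lay above replicate 2 in 33 effectors under a pseudocount of 0.1 and median-of-ratios scaling and in 35 under TPM rescaling, when 90.4% of all genes tested also did. Without the filter on low values, 9 of the 35 effectors and 4.89% of all genes were called higher, and 637 of all genes lower. Under TPM rescaling, 11 of 30 effectors and 616 of all genes (5.46%) were called higher. The log2 differences of Dtx3l (-0.10), Ifi35 (-0.14) and Parp9 (-0.37) turned negative. A constant variance prior left 15 effectors called higher, against 10.2% of all genes tested. Under a pseudocount of 0.1 the log2 difference of Parp9 was -0.016. When single libraries were left out, the effectors called higher ranged from 7 to 17, their median log2 difference from 0.64 to 2.21, all genes called higher from 611 to 1609 and all called lower from 217 to 2131. With the tested genes held the same, these ranges were 0 to 20, 1.62 to 2.92, 35 to 1936 and 140 to 1875 (36 and 146 without replicate 2 of 10p-HFSCs). The log2 difference of Parp9 ranged from -1.07 to 1.19 (-0.086 without replicate 2 of 10p-HFSCs), that of Dtx3l from -0.45 to 1.09 and that of Adar from -1.14 to 0.34, each with its lowest value without replicate 1 of 48p-HFSCs and its highest without replicate 2, and without replicate 1 Adar, Parp9 and Parp12 were called lower and Sp100 higher. Without replicate 2 of 48p-HFSCs, Dtx3l, Eif2ak2, Oas1b, Oas3, Parp9, Samd9l and Sp100 were newly called higher. These calls were made with the filter applied anew to the remaining libraries. Without a 48p-HFSC library, no effector under an FPKM of 1 in both 10p-HFSC libraries could pass this filter. Such effectors held 11 of the 17 main calls, so the lowest count and median of the first ranges partly follow from the filter. With the tested genes held the same, Dtx3l, Eif2ak2, Oas1b and Parp9 were not called without replicate 2, and Sp100 was not called without replicate 1. A lone library was assumed to vary like the other group. With the replicate number as a block, 21 effectors were called higher, with Ifit1, Oas1b, Samd9l and Sp100 added. Calls rose over all genes as well, with 14.6% of those tested called higher against 10.8% in the main fit. Same-numbered libraries deviated from their group means with a correlation of 0.408 across genes, and 2 pairs do not establish that the numbers pair them. The cause of these shifts was not tested. Low values are least precise in replicate 2 of 48p-HFSCs, which had the lowest relative depth.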
